A study of Mus musculus with 2 samples.

Results

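Expression of tubulin genes was described in mouse left cerebral cortex from long-read RNA sequencing, where 1 read can cover a whole transcript. The 10 genes, 4 of alpha-tubulin and 6 of beta-tubulin, were taken by name from the rows of both deposited transcript tables, out of 55536 annotated genes. All 10 had a read in replicate 1 and 9 had a read in replicate 2. The samples formed 1 group of 2 libraries, labelled biological replicates 1 and 2, both from B6NCrl mice aged 6 months, with no treatment or transgene given. The labels listed the same donor for both tissue samples, and they called the tissue male in 1 field while the sex field read not collected. Whether they came from separate animals was not stated, so the spread between the libraries may be technical. The tables held 1306424 reads for replicate 1 and 1304133 for replicate 2. Where a gene had 0 reads, up to 3 counts remained possible, or 2.30 CPM (reads per 1000000 reads of the library). Intervals are 95% Clopper-Pearson intervals, and both intervals and limits reflect counting error alone. Positions are those of GENCODE M21 on mm10.

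Microtubules are hollow polymers of alpha- and beta-tubulin heterodimers, and they carry axonal transport and hold the shape of neurites and of myelinating processes. Mammals have several genes for each subunit, called isotypes, whose proteins differ mainly in the acidic tail at the carboxyl end, the site of polyglutamylation and of the removal and restoration of a terminal tyrosine. Free tubulin lowers the stability of tubulin mRNAs that are being translated, through recognition of the first residues of the new chain by the adaptor Ttc5. Tuba1a is the main alpha isotype of postmitotic neurons, Tubb3 is used as a neuronal marker, and human mutations of TUBA1A, TUBB2B and TUBB3 disturb cortical development.

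The first 15 coding bases are shown because they encode the residues read in this autoregulation; capitals mark bases shared by every member of the class among the 10 genes. The 4 alpha genes differed only at the sixth and the last of these bases, where Tuba4a differed from the 3 Tuba1 genes.
Tuba1a: ATGCGtGAGTGCATc
Tuba1b: ATGCGtGAGTGCATc
Tuba1c: ATGCGtGAGTGCATc
Tuba4a: ATGCGcGAGTGCATt
Tubb2a: ATGcGcGAgATCGTG
Tubb2b: ATGcGaGAgATCGTG
Tubb3: ATGaGgGAgATCGTG
Tubb4a: ATGcGgGAaATCGTG
Tubb4b: ATGaGgGAgATCGTG
Tubb5: ATGaGgGAaATCGTG

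The last 54 coding bases before the stop codon of the beta members are shown because they hold the tail that sets the isotypes apart, and because they decide how well reads of near-identical members can be told apart. Capitals mark bases that differ from Tubb2a in a pairwise alignment of the coding sequences, in which gaps are not marked. The sequences are those of the GENCODE M21 transcripts.
Tubb2a: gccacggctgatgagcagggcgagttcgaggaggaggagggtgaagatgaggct
Tubb2b: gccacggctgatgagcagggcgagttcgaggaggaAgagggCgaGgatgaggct
Tubb3: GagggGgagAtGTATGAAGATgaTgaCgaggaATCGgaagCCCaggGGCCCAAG
Tubb4a: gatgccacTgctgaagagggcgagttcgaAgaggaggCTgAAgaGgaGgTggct
Tubb4b: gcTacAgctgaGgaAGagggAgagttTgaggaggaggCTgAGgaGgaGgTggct
Tubb5: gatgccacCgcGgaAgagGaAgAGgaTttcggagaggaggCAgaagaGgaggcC

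Tubb2b differed from Tubb2a at 3 of these 54 bases. The Tubb3 tail was the most divergent of the beta tails, with 30 differing bases against 9 in Tubb4a, 12 in Tubb5 and 14 in Tubb4b. Over the whole coding sequence Tuba1a and Tuba1b were 98.3% identical, Tuba1b and Tuba1c 97.9%, Tuba1a and Tuba1c 97.1%, and Tubb2a and Tubb2b 96.5%. Other pairs within a class lay between 81.5% and 85.3%, and pairs of an alpha and a beta gene between 55.8% and 57.6%. The leading known transcript, the one with the most reads over both libraries, had 4 exons in each of the 10 genes. In the 4 alpha genes the introns followed coding bases 3, 226 and 375, so that the first exon held the start codon alone. In the 6 beta genes they followed coding bases 57, 166 and 277.

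Tubulin reads made up 0.961% of all reads in replicate 1 and 0.897% in replicate 2. The order of the members was led by Tuba1a and ended with Tuba1c, a gene with 1 read in all. Tuba1a (chromosome 15, 98949837 to 98953703, minus strand) had 4041 reads (3093 CPM) in replicate 1 and 4372 reads (3352 CPM) in replicate 2, a mean of 3223 ± 183 CPM (SD, n = 2). It ranked 15 among the 18907 annotated genes with a read. Each of the other 9 members had less than this in both libraries.

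Next in the order came Tubb2a (chromosome 13, 34074274 to 34078007, minus strand), a beta isotype abundant in neurons, with 2490 reads (1906 CPM) in replicate 1 and 1772 reads (1359 CPM) in replicate 2. Tuba1b (chromosome 15, 98931425 to 98934565, minus strand), an alpha isotype of most tissues, had 2104 reads (1610.5 CPM) in replicate 1 and 1975 reads (1514 CPM) in replicate 2. The ranges of Tubb2a and Tuba1b overlapped, so their order, at means of 1632 ± 387 and 1562 ± 67.9 CPM, did not exceed their spread. Tubb5 (chromosome 17, 35833921 to 35838306, minus strand), a widely expressed beta isotype, had 1426 reads (1092 CPM) in replicate 1 and 1396 reads (1070.4 CPM) in replicate 2. Its level lay below those of the first 3 genes and above those of the 6 genes that followed, in both libraries.

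Tubb3 (chromosome 8, 123411424 to 123422015, plus strand), the neuronal beta isotype, had 889 reads (680.5 CPM) in replicate 1 and 680 reads (521 CPM) in replicate 2. Tubb4b (chromosome 2, 25222160 to 25224702, minus strand), a beta isotype of most tissues and of cilia, had 731 reads (559.5 CPM) in replicate 1 and 724 reads (555 CPM) in replicate 2. These 2 ranges overlapped as well, with means of 601 ± 112 CPM for Tubb3 and 557 ± 3.10 CPM for Tubb4b. Divided by the length of the leading known transcript, Tubb4b at 349 CPM per kb stood above Tubb3 at 322 CPM per kb; the other 8 members held their place in the order.

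Tuba4a (chromosome 1, 75214228 to 75219865, minus strand), the alpha isotype whose coding sequence lacks the terminal tyrosine codon, had 456 reads (349 CPM) in replicate 1 and 414 reads (317 CPM) in replicate 2. Tubb4a (chromosome 17, 57080066 to 57087782, minus strand), a beta isotype of brain whose human mutations cause hypomyelination, had 375 reads (287 CPM) in replicate 1 and 303 reads (232 CPM) in replicate 2. Tubb2b (chromosome 13, 34126748 to 34130466, minus strand), a beta isotype known from the developing brain, had 42 reads (32.1 CPM) in replicate 1 and 56 reads (42.9 CPM) in replicate 2. Over all reads the ranges of Tuba4a, Tubb4a and Tubb2b did not overlap, but most Tubb4a reads were unspliced (79.2% in replicate 1 and 85.8% in replicate 2). On known transcripts Tubb4a had 73 reads in replicate 1 and 38 in replicate 2, and Tubb2b had 38 reads in replicate 1 and 45 in replicate 2. These ranges overlapped, with means of 42.5 CPM for Tubb4a and 31.8 CPM for Tubb2b. Tuba1c (chromosome 15, 99029891 to 99038110, plus strand), an alpha isotype of many tissues, had 1 read in replicate 1 and 0 reads in replicate 2, so both libraries were under the limit of 3 counts. In tissue, fewer cells of a type and less RNA per cell cannot be told apart in these levels.

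**Figure D1:**
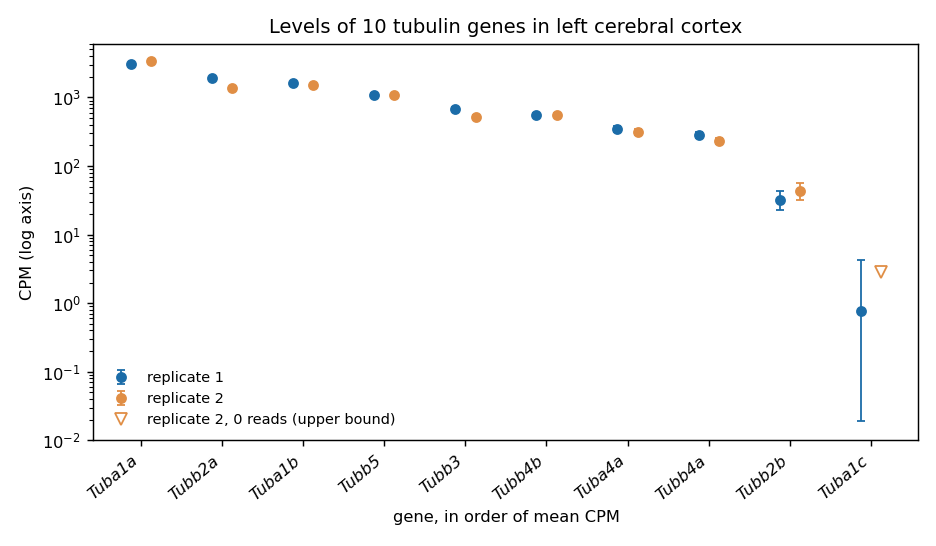
CPM of the 10 tubulin genes (log axis) in replicate 1 and replicate 2 of mouse left cerebral cortex, in order of mean CPM; error bars are 95% Clopper-Pearson intervals and the open triangle is the upper bound for 0 reads. Tuba1a lay at 3093 and 3352 CPM, 8 genes lay between 32.1 and 1906 CPM, and Tuba1c had 1 read.

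The heterodimer needs its alpha and beta subunits in equal number. Reads count mRNA and not protein, and alpha reads outnumbered beta reads in both libraries. The 4 alpha genes summed to 6602 reads (5053 CPM) in replicate 1 and 6761 reads (5184 CPM) in replicate 2. The 6 beta genes summed to 5953 reads (4557 CPM) in replicate 1 and 4931 reads (3781 CPM) in replicate 2. Alpha reads were 52.6% of the tubulin reads in replicate 1 (interval 51.7 to 53.5%) and 57.8% in replicate 2 (56.9 to 58.7%). The alpha sum exceeded the beta sum in both libraries, by a ratio of 1.11 in replicate 1 and 1.37 in replicate 2, and the intervals of the alpha share did not overlap.

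Among alpha reads Tuba1a held 61.2% in replicate 1 (60.0 to 62.4%) and 64.7% in replicate 2 (63.5 to 65.8%). Tuba1b held 31.9% in replicate 1 and 29.2% in replicate 2, and Tuba4a held 6.91% in replicate 1 and 6.12% in replicate 2. Tuba1a and Tuba1b together thus carried nearly all alpha reads. Among beta reads Tubb2a held 41.8% in replicate 1 (40.6 to 43.1%) and 35.9% in replicate 2 (34.6 to 37.3%), and Tubb5 held 24.0% in replicate 1 (22.9 to 25.1%) and 28.3% in replicate 2 (27.1 to 29.6%). Tubb3 held 14.9% in replicate 1 and 13.8% in replicate 2, and Tubb4b held 12.3% in replicate 1 and 14.7% in replicate 2. Tubb4a, at 6.30% in replicate 1 and 6.14% in replicate 2, differed by less than its counting intervals. On known transcripts alone the mean share of Tubb4a was 1.21% of beta reads, against 6.22% over all its reads, and that of Tuba4a was 4.08% of alpha reads, against 6.52%. Tubb2b held 0.706% in replicate 1 and 1.14% in replicate 2, and its intervals overlapped (0.509 to 0.952% in replicate 1 and 0.859 to 1.47% in replicate 2).

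**Figure D2:**
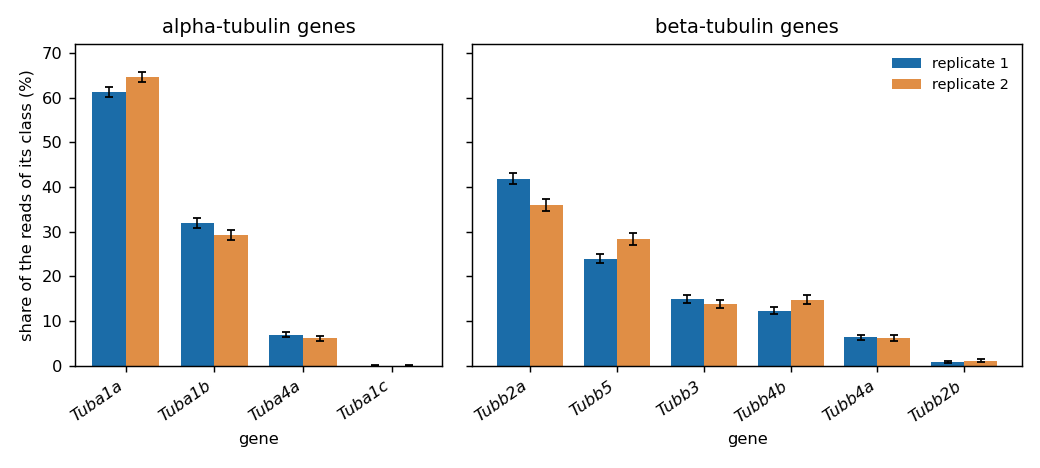
Share of each gene in the reads of its class, alpha-tubulin on the left and beta-tubulin on the right, in replicate 1 and replicate 2; error bars are 95% Clopper-Pearson intervals. Tuba1a held 61.2% and 64.7% of alpha reads, and no beta gene reached 50% of beta reads.

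The 2 libraries were compared gene by gene by an exact two-sided binomial test on the counts, which measures counting error and takes no account of spread between samples. A gene was called at a Benjamini-Hochberg adjusted p under 0.05 over all 11838 genes tested (at least 10 reads in total) and an absolute log2 ratio of replicate 1 to replicate 2 of at least 1, with 0.5 counts added. By this rule 7.05% of all genes tested were called, 5.44% higher in replicate 1 and 1.61% higher in replicate 2, and 0 of the 9 tubulin genes tested were; Tuba1c had too few reads. At an adjusted p under 0.05 alone, whatever the size of the ratio, the share was 12.8% of all genes and 4 of the 9 tubulin genes; at an unadjusted p under 0.05 it was 22.8% of all genes and the same 4 tubulin genes. Among 1799 tested genes with a mean of at least 100 CPM, 579 had an adjusted p under 0.05.

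Tubb2a, at the read counts given above, had a log2 ratio of 0.49 (adjusted p = 6.64e-26, exact binomial test with Benjamini-Hochberg adjustment). Tubb3 had a log2 ratio of 0.38 (adjusted p = 4.45e-06, same test), also higher in replicate 1. Tuba1a had a log2 ratio of -0.12 (adjusted p = 0.00320, same test), lower in replicate 1. Tubb4a had a log2 ratio of 0.30 (adjusted p = 0.0496, same test), and over 6 alternatives its adjusted p lay between 0.0270 and 0.0785, above 0.05 with DESeq2 size factors (0.0509) and with no filter on reads (0.0785). On known transcripts, scaled to each library's total of known reads, its log2 ratio was 0.82. The ratios of Tuba1b (0.09), Tubb5 (0.03), Tubb4b (0.01), Tuba4a (0.14) and Tubb2b (-0.41) had adjusted p-values of 0.220, 0.861, 0.995, 0.461 and 0.449 by the same test. On known transcripts, again scaled to the total of known reads, Tuba4a had a log2 ratio of 0.42 (adjusted p = 0.0126, same test). The median log2 ratio was 0.09 over the 9 tubulin genes and -0.00253 over all genes tested. The highest GC content in any window of 100 bases lay between 65.0% and 81.0% in the leading transcripts of the 10 genes, with a median of 73.0% over the genes tested; its part in the library ratios was not tested.

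**Figure D3:**
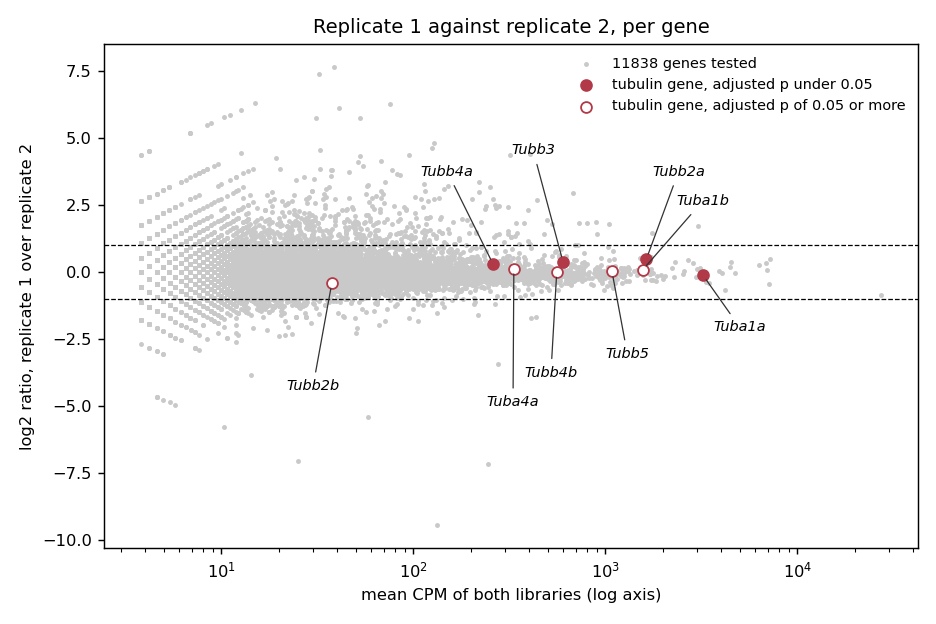
Log2 ratio of replicate 1 to replicate 2 against mean CPM (log axis) for the 11838 genes tested (grey) and the 9 tubulin genes tested (red, filled at an adjusted p under 0.05); dashed lines mark log2 ratios of -1 and 1. The tubulin genes lay between -0.41 and 0.49.

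Marker genes of cortical cell types had reads in both libraries, and some differed between them. The 6 excitatory neuron markers gave 1046 CPM in replicate 1, against 826 CPM in replicate 2, with 2 of 6 called higher in replicate 1, the synaptic genes Nrgn (698 reads in replicate 1 and 197 in replicate 2) and Slc17a7 (130 in replicate 1 and 36 in replicate 2). Inhibitory neuron markers, led by Gad1, summed to 419 CPM in replicate 1 and 521 CPM in replicate 2. Gad1 had 227 reads in each library. Gad2 (72 reads in replicate 1 and 142 in replicate 2) and Sst (70 in replicate 1 and 117 in replicate 2) had more in replicate 2. Only Slc32a1 had fewer there (3 in replicate 1 and 2 in replicate 2), and 0 of the 5 tested were called. Oligodendrocyte markers, which include the myelin gene Mbp, summed to 4884 CPM in replicate 1, against 4519 CPM in replicate 2. The 4 markers of their precursors summed to 103 CPM in replicate 1, against 20.7 CPM in replicate 2. Of these, 2 of 4 were called higher in replicate 1, Olig2 (91 reads in replicate 1 and 6 in replicate 2) and C1ql1 (21 in replicate 1 and 3 in replicate 2). Pdgfra (12 reads in replicate 1 and 13 in replicate 2) and Cspg4 (11 in replicate 1 and 5 in replicate 2) were not called. Markers of immature neurons summed to 64.3 CPM in replicate 1 and 42.9 CPM in replicate 2. Of the 3 tested, Sox4 was called higher in replicate 1 (63 reads in replicate 1 and 14 in replicate 2), while Sox11 (18 in replicate 1 and 33 in replicate 2) and Dcx (3 in replicate 1 and 7 in replicate 2) had more reads in replicate 2 and were not called. Astrocyte markers summed to 2315 CPM in replicate 1, against 2367 CPM in replicate 2. The haemoglobin gene Hbb-bs was called higher in replicate 1 (23 reads in replicate 1 and 5 in replicate 2). The remaining lists had 0 called members. Ependymal, choroid plexus and red blood cell lists summed to between 21.4 and 60.5 CPM in replicate 1 and between 9.20 and 38.3 CPM in replicate 2, with the erythroid gene Alas2 at 0 reads in both. The part of these lists in the tubulin ratios was not tested.

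Most tubulin reads covered all 4 exons. Models of 4 exons took 87.0% of tubulin reads in replicate 1 and 84.3% in replicate 2. Transcripts classed as known, those whose full chain of introns is annotated, held 86.8% in replicate 1 (86.2 to 87.4%) and 84.2% in replicate 2 (83.6 to 84.9%), against 69.3% and 64.2% over all annotated genes with introns. Reads that matched part of an annotated chain (ISM) were 4.89% in replicate 1 and 5.36% in replicate 2, against 14.96% and 17.57% over all such genes. These 10 transcripts of 1598 to 2840 bases are not matched in length to the other genes. The share of known transcripts was above 90% in both libraries in Tuba1a, at 93.0% in replicate 1 and 91.7% in replicate 2, and it was lowest in Tubb4a, at 19.5% in replicate 1 and 12.5% in replicate 2.

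Models of a single exon took a minor share in most members and the larger share in Tubb4a. Of the Tubb4a reads, 297 of 375 in replicate 1 (79.2%, interval 74.7 to 83.2%) and 260 of 303 in replicate 2 (85.8%, 81.4 to 89.5%) lay in such models. The spliced transcript Tubb4a-201 held 73 reads in replicate 1 and 38 in replicate 2. In the 1932 protein-coding genes with introns and at least 100 reads in each library the median unspliced share was 4.25%, and 56 of them had a higher mean share than Tubb4a. All but 3 of the unspliced Tubb4a reads sat in 1 model per library, 295 reads in replicate 1 and 259 in replicate 2, which the deposited annotation gives a length of 1 base at the annotated 3′ end; whether these reads lay within the last exon of 1682 bases or crossed into introns was not tested. Counting spliced models alone, Tubb4a averaged 46.3 CPM and held 1.29% of beta reads.

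Tuba4a had the next highest unspliced share, 27.6% in replicate 1 (23.6 to 32.0%) and 35.5% in replicate 2 (30.9 to 40.3%). Tubb5 followed with 16.3% in replicate 1 and 20.3% in replicate 2. In Tuba1a the share was 4.95% in replicate 1 and 5.40% in replicate 2, all but 1 of these reads in a model that spans the last exon of 1178 bases exactly. Tuba1b, Tubb2a, Tubb3 and Tubb4b had between 6.31% and 11.0%, and Tubb2b had 2 of 42 reads unspliced in replicate 1 and 8 of 56 in replicate 2. A model of 1 exon is a place where reads without a splice were pooled, and its ends are not those of each read.

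**Figure D4:**
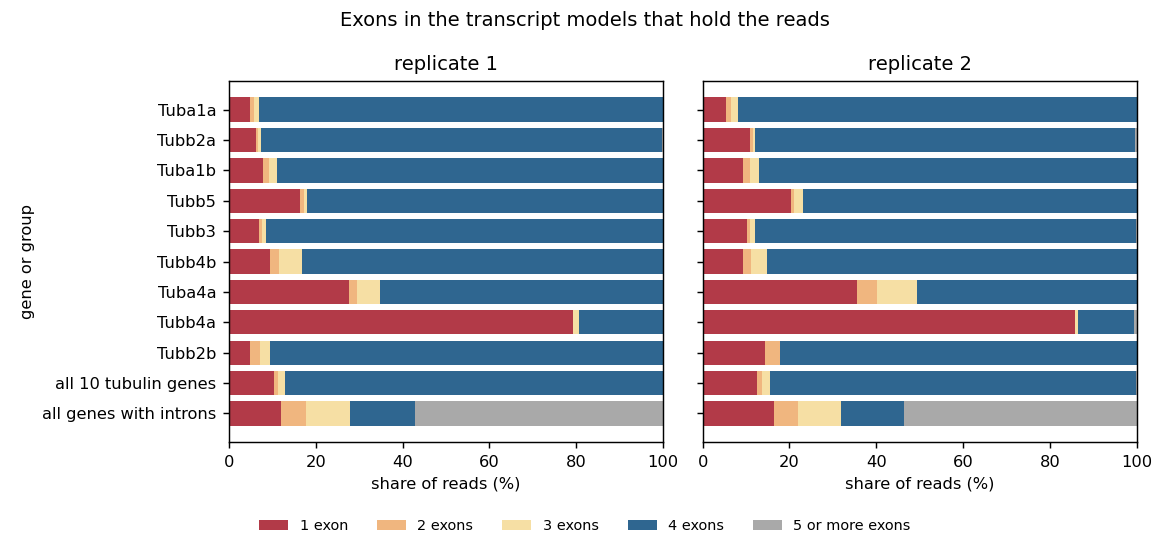
Share of reads by the number of exons in the transcript model that holds them, for 9 tubulin genes, all 10 together and all annotated genes with introns, in replicate 1 (left) and replicate 2 (right). Models of 4 exons held 87.0% and 84.3% of tubulin reads, while models of 1 exon held 79.2% and 85.8% of Tubb4a reads.

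Each tubulin gene used 1 annotated transcript for nearly all of its known reads. In Tuba1a, Tubb2a and Tubb4a only 1 transcript was annotated, so no other known one could have a read. In Tuba1b and Tubb2b, with 2 annotated transcripts each, the leading transcript was the only known one with a read. Tubb5-201 held 1166 of 1178 known reads in replicate 1 (99.0%) and 1067 of 1096 in replicate 2 (97.4%), and Tubb5-204, a transcript annotated with a retained intron, held 12 in replicate 1 and 28 in replicate 2. By Fisher's exact test with Benjamini-Hochberg adjustment over 2572 genes, of which 1.75% were called and 7.19% had an unadjusted p under 0.05, 0 of the 4 tubulin genes tested were called and 1 had an unadjusted p under 0.05; for Tubb5 the unadjusted p was 0.00413 and the adjusted p was 0.174. Tuba4a-202 held 284 of 286 known reads in replicate 1 and 195 of 197 in replicate 2. Tubb3-201 held 809 of 809 in replicate 1 and 596 of 597 in replicate 2, and Tubb4b-201 held 598 of 600 in replicate 1 and 610 of 610 in replicate 2.

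The 3′ region of Tubb5 held 2 groups of reads on the gene's strand and 1 on the other. Unspliced reads fell into a distal model over the last part of the annotated 3′ untranslated region (chromosome 17, 35833921 to 35834693 in replicate 1), with 102 reads in replicate 1 and 131 in replicate 2, and a proximal model that ends where the distal one begins, with 131 reads in replicate 1 and 153 in replicate 2. Spliced models of Tubb5 not classed as known, ISM included, ended 772 bases before the annotated end in replicate 1 (15 reads in 4 models). In replicate 2 they ended 771 bases before it (16 reads in 8 models). The ends of reads on known transcripts are not given by the deposited models, so the share of Tubb5 mRNA ending at either place was not tested. Over the distal span, the opposite strand carried an unspliced model with 163 reads in replicate 1 and 176 in replicate 2. In the other 9 members opposite-strand unspliced models had 0 to 2 reads. Flot1, the neighbour whose transcripts run on the plus strand, ends 1130 bases from the annotated end of Tubb5 and had 233 reads in replicate 1 and 217 in replicate 2. Whether the labels' protocol kept the strand of each molecule is not given in the sources used here, so sense and opposite-strand unspliced reads cannot be told apart with certainty.

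The 30 bases up to each end of Tubb5 are shown because they carry or lack the polyadenylation signal; capitals mark AATAAA, searched with ATTAAA on the transcribed strand only. The annotated end held AATAAA, which 52.9% of the leading transcripts of 10023 protein-coding genes held in their last 30 bases. The end shared by the spliced models held neither motif and lay in a run of T, which reads as A on the opposite strand just past the end of the opposite-strand model.
Tubb5 annotated end, chr17:35833921-35833950, minus strand: agagccaaaAATAAAtgggaattggaaaaa
Tubb5 end of the spliced models in replicate 1, chr17:35834693-35834722, minus strand: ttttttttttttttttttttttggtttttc

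**Figure D5:**
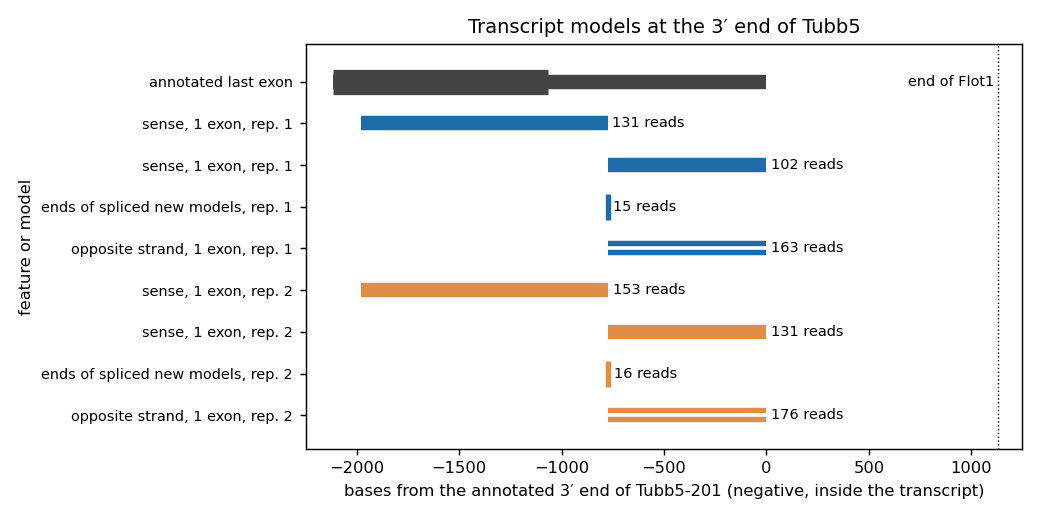
Transcript models at the 3′ end of Tubb5 by distance from its annotated end (bases), with reads per model: the last exon in grey (thick where coding), models of replicate 1 in blue and of replicate 2 in orange, opposite-strand models with a white line. Sense models of 1 exon meet 772 and 771 bases before the annotated end, where the opposite-strand models, with 163 and 176 reads, also have an end.

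Spliced Tuba4a reads on models not classed as known, ISM included, likewise ended short of the leading transcript. Most ended at 75214972, with 40 reads in replicate 1 and 67 in replicate 2. This place is 744 bases before the end of Tuba4a-202 and is the annotated end of Tuba4a-201. The largest unspliced model ended at the same place in replicate 2 (143 reads), but in replicate 1 (126 reads) it ran 531 bases beyond the end of Tuba4a-202. The end at 75214972 held ATTAAA, which 14.3% of the leading transcripts held, and the end of Tuba4a-202 held neither motif. Tuba4a lies tail to tail with Stk16, a kinase gene on the plus strand whose spliced reads numbered 102 in replicate 1 and 80 in replicate 2 among models over the same span, so unspliced reads of the 2 genes overlap in position. In Tubb2b the spliced models not classed as known ended 470 bases before the annotated end in replicate 1 (2 reads) and 472 bases before it in replicate 2 (3 reads).
Tuba4a-202 annotated end, chr1:75214228-75214257, minus strand: ttgacctaaaatatacacggtctgttttta
Tuba4a end of most spliced models, chr1:75214972-75215001, minus strand: atgctATTAAAagtcaggtcgtctcccctc

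The new chain of introns with most reads in the tubulin genes used another first exon of Tuba4a. It joined the first exon of Tuba4a-203, which lies upstream of the start of Tuba4a-202, to the rest of the Tuba4a-202 chain, with 9 reads in replicate 1 and 12 in replicate 2, beside 284 and 195 reads of Tuba4a-202. The end of the upstream exon and the start of Tuba4a-202 both lie within the 300 bases of the gene's RefSeq promoter window (GRCm38.p6, chromosome 1, 75219245 to 75219544). The bases from the last 30 of the upstream exon, in capitals, to the base before the start of Tuba4a-202 are shown.
Tuba4a, chr1:75219295-75219455, minus strand: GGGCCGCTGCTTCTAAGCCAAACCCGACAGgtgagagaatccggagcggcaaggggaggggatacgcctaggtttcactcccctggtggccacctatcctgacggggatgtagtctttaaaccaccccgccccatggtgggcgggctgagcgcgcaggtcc

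The Tuba4a window held no TATAA. Of the 9 tubulin genes with a promoter window (Tubb2b was not matched), 3 held TATAA, against 16.0% of 32851 windows. The search covered the gene's strand in the 250 bases before the start used by the RefSeq window. TATAA lay 30 bases before this start in Tubb3, 29 in Tubb2a and 78 in Tuba1a. In Tubb3 and Tuba1a this start and the TATAA lay inside the GENCODE gene span given above. In Tubb2a the TATAA lay upstream of the gene span.

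Chains of introns outside the annotation were few in the tubulin genes. In all there were 66, with 55 reads in replicate 1 and 66 in replicate 2; 51 rested on a single read and 11 were seen in both libraries. Reads on chains with a splice site outside the annotation (NNC) made up 0.327% of tubulin reads in replicate 1 and 0.393% in replicate 2, against 3.24% and 3.12% over all annotated genes with introns. The 2 sets are not matched in the number of introns. Models of 5 or more exons held 57.2% of reads in replicate 1 and 53.7% in replicate 2 over all such genes. In the tubulin genes they held 0.0717% and 0.0941%. Of the 66 chains, 27 differed from an annotated intron by at most 20 bases at either end, and 13 had the new gap inside an annotated exon.

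Besides the upstream first exon of Tuba4a, 10 chains were seen in both libraries. In Tuba1b a splice site shifted by 4 bases had 4 reads in replicate 1 and 3 in replicate 2. In Tubb4b an intron shifted by 5 bases at 1 end and 4 at the other had 4 reads in replicate 1 and 3 in replicate 2, and one shifted by 5 and 6 bases had 3 reads in replicate 1 and 1 in replicate 2. In Tubb2a 2 shifts of the last intron, by 7 and by 4 bases, had 3 reads each over both libraries, and a shifted intron of Tubb5 had 1 read in each library. In Tuba4a 2 further first introns, of 990 and 1091 bases, had 2 and 1 reads in replicate 1 and 1 read each in replicate 2. A new combination of annotated splice sites in Tuba1a had 2 reads in replicate 1 and 1 in replicate 2.

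The remaining chain was a gap of 260 bases in the last exon of Tubb2a (chromosome 13, 34074486 to 34074745), with 3 reads in replicate 1 and 4 in replicate 2. The gap begins with GT and ends with AG, removes 260 coding bases and ends within the tail shown above. The 30 bases around each end are shown, with the single base shared by both ends in capitals.
Tubb2a start of the gap, chr13:34074731-34074760, minus strand: tcaagacggccgtgtGtgacatccctcctc
Tubb2a end of the gap, chr13:34074471-34074500, minus strand: ttcgaggaggaggagGgtgaagatgaggct

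The near identity of some members limits how surely their reads were assigned. Processed pseudogenes at least 97% identical to Tuba1a and Tuba1b over most of the coding sequence held few reads, with Gm17383 at 6 in replicate 1 and 7 in replicate 2, Gm3226 at 6 in replicate 1 and 3 in replicate 2, and Gm3756 at 2 in replicate 1 and 5 in replicate 2. Gm49450, a gene annotated over the same strand from Tuba1b to Tuba1a, had 4 reads in replicate 1 and 1 in replicate 2. Tubb4b-ps1, 98.4% identical to Tubb4b, had 1 read in each library. How the authors' pipeline resolved reads that match several copies is not given in the sources used here, so the single read of Tuba1c and the few reads of Tubb2b are uncertain.

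Other genes of the tubulin system were grouped by role. Since 7.05% of all genes tested were called, lists of 3 to 13 tested members with 0 or 1 called are not set apart from other genes. Of 10 further tubulin genes, 6 had a read in both libraries; the gamma tubulins Tubg1 at 68.2 ± 1.17 CPM and Tubg2 at 55.5 ± 3.86 CPM, which nucleate microtubules, and the alpha isotype Tuba8 at 21.1 ± 0.568 CPM led them (SD, n = 2). Tuba3a, Tuba3b, Tubal3 and Tubb1 had 0 reads in both libraries. The folding cofactors, which assemble the heterodimer, had reads of all 7 members, led by Tbcb at 177 ± 26.2 CPM, Arl2 at 127 ± 6.12 CPM and Tbca at 127 ± 34.0 CPM, and 0 of 7 were called between the libraries. Among autoregulation genes, Ttc5 had 74.7 ± 3.70 CPM and Scaper 19.9 ± 0.0247 CPM. Cnot11 was called higher in replicate 1, with 31 reads in replicate 1 and 5 in replicate 2 (log2 ratio 2.52, adjusted p = 0.000242, exact binomial test with Benjamini-Hochberg adjustment).

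The enzymes that modify tubulin had reads in both libraries for 17 of 22 annotated members. The deacetylase Sirt2, which is abundant in oligodendrocytes, led with 178 ± 30.1 CPM, followed by the polyglutamylase Ttll7 at 133 ± 11.2 CPM and the tyrosine ligase Ttl at 94.6 ± 11.3 CPM. Of 13 tested, 1 was called, Ttll11, with 25 reads in replicate 1 and 8 in replicate 2 (log2 ratio 1.58, adjusted p = 0.0377, same test). Ttll6, Agbl2 and Vash1 had 0 reads in both libraries. Among severing enzymes the katanin gene Katnal1 had 44.0 ± 6.99 CPM and Katna1 had 13.4 ± 2.73 CPM, with 0 of 4 called. The gamma tubulin complex was led by Mzt1 at 139.8 ± 12.6 CPM, Tubgcp2 at 42.1 ± 15.2 CPM and Mzt2 at 39.1 ± 5.47 CPM, with 0 of 8 called.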

How the data were processed

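The data are long-read RNA-seq libraries of mouse left cerebral cortex. The authors deposited, for each library, a table of counts, whole reads per transcript model without normalization, and, as other values, each model's exon number and length, together with an annotation of mm10 with GENCODE M21 features and models added by TALON. Per the deposited classes, models are known, incomplete (ISM), new combinations (NIC), with new splice sites (NNC), genomic or antisense. No aligner or TALON version is stated in the sources used here.

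Counts of models given to an annotated gene were summed and scaled to CPM by the library total, 1306424 reads in replicate 1 and 1304133 in replicate 2. Genes with at least 10 reads were compared by an exact binomial test; edgeR 4.0.16 and DESeq2 1.42.0 supplied factors for alternatives only, since 1 group allows no model of replicate spread. The test was checked on simulated counts. Leading transcript shares used Fisher's exact test in genes with at least 20 known reads in each library. Sequences came from GENCODE M21 transcripts and, for promoters, RefSeq GRCm38.p6, read with Biopython 1.88; near copies were searched with blastn 2.17.0 at 97% identity over 200 bases. Tests used SciPy 1.17.1.

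All 10 members are described. From each list of tubulin-related genes the 3 of highest mean CPM and every called gene are named, and every new chain seen in both libraries. A few items under these rules are not reported here. The members, lists and rules were chosen with earlier results of these data known. Alternatives changed the models counted, the total, the normalization, the filter, the pseudocount and the libraries used.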

Additional observations from a re-analysis of the deposited data

Results flagged for a closer look

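Reads on the strand opposite Tubb5 lay outside the sense counts described for the gene. The opposite-strand unspliced model over the distal 3′ region of Tubb5 held 163 reads in replicate 1 and 176 reads in replicate 2, above the limit of 3 counts that a count of 0 allows, while the same kind of model held 0 to 2 reads at each of the other 9 tubulin genes. Whether the strand given to these reads is that of the molecule was not tested.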

How the results depend on the processing

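With 2 libraries of 1 group, the levels rest on a mean of 2 values and the tests see counting error alone. No paired analysis was possible because the study has 1 group, and the tests between libraries could not be run with a library left out. Known transcripts alone gave sums of 7949 CPM for all 10 genes, 4532 CPM for the alpha genes and 3417 CPM for the beta genes. Spliced models alone gave 8229, 4713 and 3516 CPM for the same sums, and a total of annotated nuclear genes gave 10395 CPM for all 10 and 5734 CPM for the alpha genes, because the alternatives leave out reads from the sum or from the total. Without a replicate, the sum of all 10 genes was 8965 to 9610 CPM, the alpha sum 5053 to 5184 CPM, the beta sum 3781 to 4557 CPM, the ratio of alpha to beta 1.11 to 1.37, the known share 84.2 to 86.8% and the unspliced share 10.4 to 12.4%. The order of the 10 genes was the same under the first 3 of these alternatives; in replicate 2 alone Tuba1b stood above Tubb2a and Tubb4b above Tubb3. Per kb of transcript, chosen after seeing the data, 8 members kept their place.

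Tubb4a averaged 42.5 CPM on known transcripts and 46.3 CPM on spliced models, and Tuba4a 185 and 229 CPM. Log2 ratios on known transcripts, unlike these CPM values, were scaled to each library's total of known reads. By this scaling the ratio of replicate 1 to replicate 2 reversed to -0.14 in Tubb4b and to -0.010 in Tubb5 (adjusted p = 0.297 and 0.983, exact binomial test). Tubb5 had 1178 known reads in replicate 1 and 1096 in replicate 2, so the sign of its ratio depended on the total used. Tubb4b had 600 known reads in replicate 1 and 610 in replicate 2. The ratio grew to 0.42 in Tuba4a and 0.82 in Tubb4a (adjusted p = 0.0126 and 0.0270, same test). Tuba4a was thereby added to the 4 members that had an adjusted p under 0.05 by the exact binomial test with Benjamini-Hochberg adjustment, 5 in all; the cause was not tested. In none of the 6 alternatives was a tubulin gene called. The share called of all genes tested ran from 4.01% (758 of 18907, no filter on reads) to 11.1% (861 of 7765, known transcripts), against 7.05% (835 of 11838). Genes called higher in replicate 2 were 191 of 11838 tested (1.61%). They were 117 of 6612 (1.77%) with at least 50 reads and 102 of 7765 (1.31%) on known transcripts. With ISM reads of a single matching transcript added, 148 of 3077 genes tested (4.81%) differed in the share of the leading transcript, against 45 of 2572 (1.75%).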
